A study of Mus musculus with 5 samples.

Results

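RAW264.7 is a mouse macrophage cell line, and its response to lipopolysaccharide (LPS) was read here as the difference between the LPS model and untreated control cells, 4 of the 5 RNA libraries of the series. The LPS model is 2 libraries (LPS model 1 and 2) of cells collected 24 h after LPS, and the control is 2 libraries (control 1 and 2) of cells given phosphate-buffered saline. The fifth library, of cells given LPS and a fungal compound, forms a group of its own in the fit, the filter on low levels and the rescalings, and its values are given only where named. The LPS dose of the study's cell model was 0.1 μg/ml, which is not restated for the sequenced cells. No source used here says that replicates came from separate cultures, so the p-values reflect only how far these libraries differ, and that spread may be technical. All 1489 genes of the deposited table were described, of which 1053 reached a level that was tested.

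LPS is the main glycolipid on the surface of Gram-negative bacteria. Macrophages sense it through CD14, MD-2 and the receptor TLR4, whose adaptors MyD88 and TRIF lead to NF-κB, MAP kinases and interferon regulatory factors. These factors switch on cytokines, acute inhibitors of the same pathways and, through secreted type I interferon, a second wave of antiviral genes. Macrophages also change their lipid, iron and redox metabolism after LPS, and these functions, beyond chemokines and nitric oxide, are the subject here.

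Levels are given for each library as FPKM, that is fragments divided by depth and by exon length. A difference is LPS model minus control on the scale log2(FPKM + 1), with its standard error (SE), from a limma fit over all tested genes. Genes with an adjusted p under 0.05 (Benjamini-Hochberg, over all tested genes) are called higher or lower. The pseudocount of 1 understates the change of genes with a low level. Of the tested genes, 225 reached 1 FPKM only in libraries given LPS and 64 only in control libraries, so the filter favoured their direction. Of the 1053 tested genes, 766 (72.7%) rose and 246 (23.4%) fell in LPS model cells, so 96.1% were called and 41 genes did not pass the test. The libraries of the groups did not overlap at 97.7% of tested genes. Since the table lists genes selected by a rule that the sources used here do not give, these shares are those of a selected set, and a count within a function has to be read against 72.7% and 23.4%.

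The median difference of all tested genes was 0.96. Replicates lay much closer together, with a median absolute difference of 0.07 between the LPS model libraries and 0.08 between the control libraries, against a median absolute difference of 1.09 between the groups. Rises were larger than falls. By the ratio of mean FPKM, 635 tested genes were at least 2-fold higher and 208 at least 2-fold lower, 273 were at least 4-fold higher and 34 at least 4-fold lower, and 80 were at least 16-fold higher against 1 gene, Hpgd, that was at least 16-fold lower. Depths were alike, with 16584000 and 16164000 reads recovered for the LPS model libraries, against 16557000 and 17094000 for the control libraries. The listed genes together held 17% of the reads in both LPS model libraries, against 8.0% and 8.2% in the control libraries. Rescaling the libraries to equal levels of the listed genes lowered every difference, by 0.96 at the median with the median of ratios and by 0.83 with quantile normalization. After these rescalings 408 and 443 of the 766 genes were still called higher, and all 246 lower genes were still called lower. Genes that changed sign are named as such below.

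**Figure D1:**
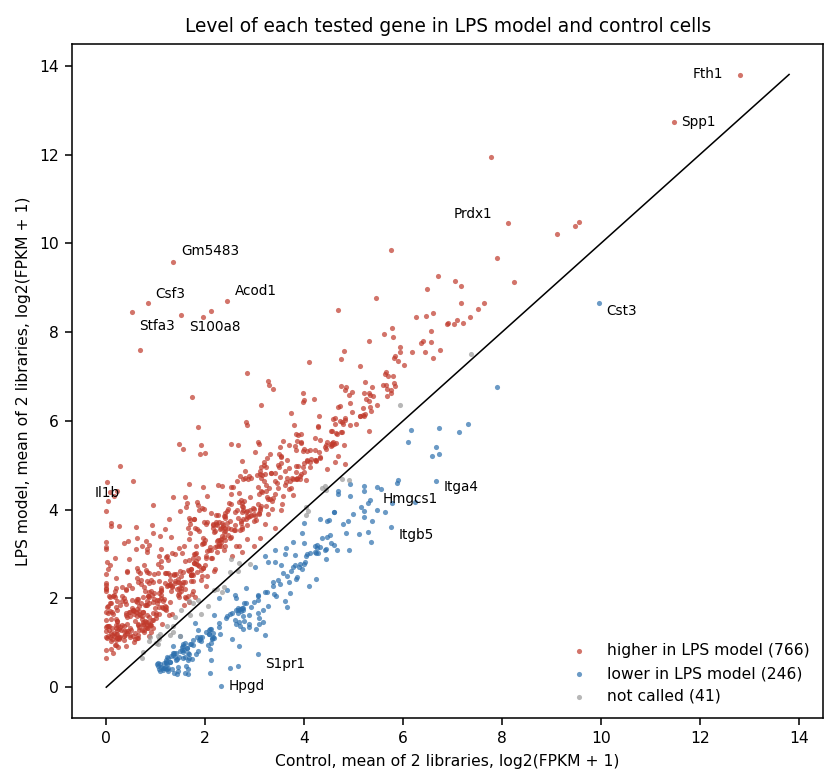
Each point is 1 of the 1053 tested genes, with its mean level over the 2 LPS model libraries (y axis) against its mean level over the 2 control libraries (x axis), both as log2(FPKM + 1). The line marks equal levels. Red points (766) were called higher in LPS model cells, blue points (246) lower, and grey points (41) were not called. The red points farthest above the line are Gm5483, Stfa3 and Csf3.

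The largest rises by this difference were of the stefin genes Gm5483 and Stfa3, followed by Csf3 and S100a8. Stefin genes encode small cytosolic inhibitors of cysteine proteases. Gm5483, annotated as a cystatin A, had 754 and 763 FPKM in LPS model cells, against 0.729 and 2.40 FPKM in control cells. Stfa3 had 345 and 352 FPKM in LPS model cells, against 0.293 and 0.568 FPKM in control cells, and Gm5416, annotated as a stefin, had 189 and 194 FPKM in LPS model cells, against 0.616 and 0.597 FPKM in control cells. In each, both control libraries were far below either LPS model library, and the LPS model libraries were close to each other. Stfa3 and Gm5416 reached 1 FPKM only in libraries given LPS, so their direction followed from the filter. The differences were 8.29 ± 0.31 for Gm5483 (adjusted p = 8e-06), 7.94 ± 0.10 for Stfa3 and 6.90 ± 0.043 for Gm5416. Together with Stfa2 (4.74 ± 0.18), these are the listed stefin genes of 1 cluster on chromosome 16, where they lie between positions 36184212 and 36455392 of the mouse build mm10. Members of this cluster are near-identical copies, so the split of reads between them is uncertain. The list of serpins, stefins and cystatins did not move one way, since 11 of its 15 tested genes rose and 4 fell. Of the 15 genes, 5 reached 1 FPKM only in libraries given LPS and 1 only in control libraries, so the filter favoured their direction. Cst3 (cystatin C, a secreted inhibitor of cathepsins and the third highest gene of control cells) had 411 and 392.4 FPKM in LPS model cells, against 925 and 1059 FPKM in control cells, and Cst7 had 3.30 and 4.39 FPKM in LPS model cells, against 15.6 and 16.8 FPKM in control cells. Their differences were -1.30 ± 0.071 and -1.84 ± 0.12, against 0.89 ± 0.033 for Cstb, which was lower by both rescalings. Serpinb8 fell (-0.75 ± 0.054), while Serpinb2, a plasminogen activator inhibitor of activated macrophages, was at 299 and 294 reads in LPS model cells, against 0 and 0 in control cells, at least 203-fold higher when 3 reads are allowed for the control group.

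Signals and antimicrobial proteins made up most of the other large rises. Csf3 (G-CSF, the growth factor of neutrophils) had 399.6 and 399.8 FPKM in LPS model cells, against 0.470 and 1.12 FPKM in control cells, a difference of 7.83 ± 0.17 (adjusted p = 2.2e-06). S100a8, a calcium-binding protein with antimicrobial action, had 333 and 333 FPKM in LPS model cells, against 0.870 and 2.86 FPKM in control cells, and Acod1, which makes the antibacterial metabolite itaconate, had 415 and 418 FPKM in LPS model cells, against 4.67 and 4.26 FPKM in control cells. The LPS model libraries were nearly equal in all of them, while the control libraries were low and, for Csf3 and S100a8, unlike each other. Of the 10 genes with the largest rises, 8 were higher in control 2 than in control 1. Over the 80 genes at least 16-fold higher, control 2 was above control 1 at 37 and below it at 26, with 17 at 0 reads in both, and over all tested genes it was above at 529 of 1053. The other 3 of the 10 largest rises were the chemokines Cxcl2 (6.41 ± 0.20), Ccl2 (6.37 ± 0.15) and Ccl5 (4.83 ± 0.20). Ccl3 and Ccl4, with 3966 and 3941 FPKM in LPS model cells, against 211 and 227 FPKM in control cells at Ccl3 and 920.3 and 927 FPKM in LPS model cells, against 53.6 and 53.2 FPKM in control cells at Ccl4, were among the 10 highest genes of LPS model cells. In the list of NADPH oxidase and antimicrobial genes, 5 of 6 tested genes rose and Cst7 fell. Wfdc17 had 40.7 and 45.8 FPKM in LPS model cells, against 2.15 and 1.43 FPKM in control cells, and Slpi, an inhibitor of neutrophil elastase, had 40.96 and 39.4 FPKM in LPS model cells, against 1.53 and 2.33 FPKM in control cells.

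Few receptors and adaptors of the LPS pathway itself were listed, 11 of 41, and of 10 tested genes 8 rose and 2 fell, near the background shares, with a median difference of 0.84 that turned to -0.16 with the median of ratios. Ly86 (MD-1, partner of the TLR4 homologue RP105) fell, with 36.6 and 35.7 FPKM in LPS model cells, against 91.4 and 98.5 FPKM in control cells, and so did Tlr8, a receptor of single-stranded RNA, with 1.01 and 0.914 FPKM in LPS model cells, against 1.99 and 1.89 FPKM in control cells. Cd14, the LPS co-receptor, was among the 10 highest genes of both groups at 1360.1 and 1331 FPKM in LPS model cells, against 685 and 732 FPKM in control cells, a difference of 0.93 ± 0.042 that changed sign under both rescalings. Ikbke, a kinase that activates interferon regulatory factors, had the largest rise (1.88 ± 0.068), followed by Irak3 (1.55 ± 0.086), an inhibitory kinase homologue of the pathway, and Ripk2 (1.21 ± 0.057), the kinase of NOD receptors, which did not pass with the median of ratios.

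All 13 tested genes of NF-κB feedback and mRNA decay rose, with a median of 1.48 against 0.96 over all tested genes. Of the 13 genes, 2 reached 1 FPKM only in libraries given LPS, so the filter favoured their rise. Genes of this list encode inhibitors that NF-κB itself induces and enzymes that destroy cytokine mRNAs. Socs3, which blocks cytokine receptor signalling, had 131 and 136 FPKM in LPS model cells, against 5.97 and 6.39 FPKM in control cells. Zc3h12a (Regnase-1, an RNase that degrades cytokine mRNAs) had 61.1 and 62.5 FPKM in LPS model cells, against 6.43 and 5.70 FPKM in control cells, and Nfkbiz (IκBζ, a nuclear cofactor of NF-κB) had 18.1 and 19.1 FPKM in LPS model cells, against 1.98 and 2.05 FPKM in control cells. The groups were far apart in all of them, with differences of 4.23 ± 0.049, 3.15 ± 0.064 and 2.70 ± 0.06 and adjusted p of 6.2e-07, 1.9e-06 and 2.3e-06. Nfkbia (IκBα) at 1.43 ± 0.058 and Tnfaip3 (A20) at 1.72 ± 0.065 also rose.

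Promoter sequences show where letters like those bound by these factors stand. In the RefSeq windows of build GRCm38.p6, from 250 bases before to 50 bases after each start, an NF-κB-like motif (GGG, any 2 bases, then TTTCC, on either strand) was in 1.63% of all 32851 windows and in 2 of 16 windows of the NF-κB feedback genes, 12 of whose 13 tested genes had a window. It was in 4 of 23 windows of the cytokine and growth factor ligands, 17 of whose 21 tested genes had a window. It was in 0 of 19 windows of the genes of defence against oxidants, 17 of whose 19 tested genes had a window. Only 754 of the 1053 tested genes had a window, under the 80% needed for shares over called genes, and the interferon-induced genes missed this mark as well, so none is given for them. The 250 bases before the start are printed for the 3 genes with the largest rises that hold this motif, among the 10 largest rises and the NF-κB feedback genes, and for Isg15, the interferon-induced gene with the largest rise that holds its own motif, read on the strand of the gene, with the matched letters in capitals.
Cxcl2, chr5:90903649-90903898, strand +: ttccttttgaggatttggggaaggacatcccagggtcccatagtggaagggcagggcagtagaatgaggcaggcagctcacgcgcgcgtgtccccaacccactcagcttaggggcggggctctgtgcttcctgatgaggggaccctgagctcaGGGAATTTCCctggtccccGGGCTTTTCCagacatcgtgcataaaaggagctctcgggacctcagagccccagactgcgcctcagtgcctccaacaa
Tnfaip3, chr10:19015411-19015660, strand -: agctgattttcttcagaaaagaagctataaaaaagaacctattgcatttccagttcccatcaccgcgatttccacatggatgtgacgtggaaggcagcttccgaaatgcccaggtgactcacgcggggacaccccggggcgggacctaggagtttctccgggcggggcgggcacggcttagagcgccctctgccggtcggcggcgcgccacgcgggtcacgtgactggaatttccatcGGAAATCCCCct
Nfkbia, chr12:55492648-55492897, strand -: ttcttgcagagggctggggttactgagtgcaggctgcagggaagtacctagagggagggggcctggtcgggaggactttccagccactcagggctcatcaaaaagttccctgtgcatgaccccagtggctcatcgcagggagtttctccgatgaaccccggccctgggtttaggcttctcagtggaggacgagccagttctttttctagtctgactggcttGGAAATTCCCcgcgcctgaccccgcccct
Isg15, chr4:156200819-156201068, strand -: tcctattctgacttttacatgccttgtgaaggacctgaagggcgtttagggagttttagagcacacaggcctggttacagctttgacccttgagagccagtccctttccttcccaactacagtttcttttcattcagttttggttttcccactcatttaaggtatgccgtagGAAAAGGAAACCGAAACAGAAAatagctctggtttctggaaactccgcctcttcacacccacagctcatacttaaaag
In Cxcl2 the motif occurs 2 times, the first starting 97 bases before the start. It starts 12 bases before the start in Tnfaip3 and 29 bases before it in Nfkbia, on the opposite strand in both. In Isg15 the capitals mark 3 overlapping matches to an interferon response-like motif (GAAA, any 2 bases, then GAAA, on either strand) held by 3.44% of all windows. A match is a description of letters, not a measured binding site.

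Of the 21 tested cytokine and growth factor ligands, 20 rose, with a median of 1.65. Since 9 of them reached 1 FPKM only in libraries given LPS, the filter favoured their rise, and the count is a description. Il1b (interleukin 1β, a fever-inducing cytokine) was at 0 in both control libraries, with 463 and 453 reads in LPS model cells, against 0 and 0 in control cells, which is at least 314-fold higher when 3 reads are allowed for the control group. Its partner Il1a had 11.8 and 12.2 FPKM in LPS model cells, against 0.0918 and 0.0593 FPKM in control cells. Neither gene overlapped between the groups, as was so for 97.7% of all tested genes. Il1b and Il1a reached 1 FPKM only in libraries given LPS, so their direction followed from the filter. Il1rn, the natural antagonist of both, rose as well (3.51 ± 0.066), as did Tnf (3.31 ± 0.031), Ltb (2.20 ± 0.088) and Osm (2.08 ± 0.14), which were named after their values were seen. Spp1 (osteopontin, a secreted matrix protein and cytokine) was the second highest gene of both groups, with 6877 and 6808 FPKM in LPS model cells, against 2827 and 2863 FPKM in control cells. Its difference was 1.27 ± 0.028, and it did not pass the test after either rescaling. Igf1 (insulin-like growth factor 1) was the ligand that fell, with 5.80 and 5.76 FPKM in LPS model cells, against 10.9 and 10.2 FPKM in control cells.

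Of the cytokine receptors, 12 of 14 tested genes rose and 2 fell (median 1.06), while 7 were higher and 3 lower with the median of ratios, and 8 and 2 with quantile normalization. Tnfrsf1b (TNF receptor 2) had 101 and 108 FPKM in LPS model cells, against 8.81 and 9.85 FPKM in control cells, a difference of 3.35 ± 0.067. The decoy receptor genes Tnfrsf23 and Tnfrsf26 rose by 1.88 ± 0.044 and 1.73 ± 0.059. Against these, Tgfbr1, the type I receptor of TGF-β, had 7.51 and 7.41 FPKM in LPS model cells, against 21.3 and 19.8 FPKM in control cells, and Csf3r, the receptor of the strongly raised Csf3, had 0.267 and 0.308 FPKM in LPS model cells, against 1.02 and 1.20 FPKM in control cells. The ligand and the receptor of G-CSF differed by 7.83 ± 0.17 and -0.71 ± 0.091. Csf3r reached 1 FPKM only in the control libraries, so its direction followed from the filter. Its reads were few, 16 and 18 in LPS model cells, against 61 and 74 in control cells.

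Immediate-early transcription factors, which respond within minutes to growth and stress signals, were higher at 24 h at 13 of 15 tested genes and lower at 2 (median 1.21). Under the rescalings this did not hold for the list, of which 6 were higher and 7 lower with the median of ratios, and 7 and 3 with quantile normalization (medians 0.035 and 0.021). Ier3, an early gene that limits cell death, had 365 and 353 FPKM in LPS model cells, against 23.1 and 26.7 FPKM in control cells. Myc, a driver of growth and metabolism, had 36.4 and 37.8 FPKM in LPS model cells, against 2.98 and 2.47 FPKM in control cells, and Egr1 had 22.1 and 22.96 FPKM in LPS model cells, against 3.84 and 3.72 FPKM in control cells. The exceptions were Id3 (-1.08 ± 0.066), an inhibitor of helix-loop-helix factors, and Klf4 (-0.53 ± 0.10), a factor of monocyte differentiation. Of the MAP kinase phosphatases and related feedback genes, which switch kinases off again, 13 of 14 rose. Dusp5, a nuclear phosphatase of ERK, had 41.7 and 43.8 FPKM in LPS model cells, against 2.64 and 2.96 FPKM in control cells. Dusp6 and Dusp1 rose by 2.30 ± 0.044 and 2.29 ± 0.15, whereas Dusp22 fell (-0.85 ± 0.068).

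Interferon-induced genes formed the largest list, and 67 of 69 tested genes rose and 2 fell. Of the 69 genes, 12 reached 1 FPKM only in libraries given LPS, so the filter favoured their rise. The list held 0.664% and 0.682% of reads in LPS model cells, against 0.227% and 0.224% in control cells. The median difference was 1.39 and stayed above 0 under both rescalings (0.40 and 0.55), where 43 and 47 genes were called higher and 16 and 10 lower. Irf7, the factor that amplifies interferon production, had 116 and 123 FPKM in LPS model cells, against 8.25 and 9.01 FPKM in control cells and the largest rise (3.64 ± 0.059, adjusted p = 1.4e-06). Isg15, a ubiquitin-like modifier, had 61.7 and 57.1 FPKM in LPS model cells, against 5.75 and 6.57 FPKM in control cells, and Ifi202b, a DNA-binding protein, had 41.9 and 44.7 FPKM in LPS model cells, against 4.98 and 4.55 FPKM in control cells. These are the members with the largest rises, and no library of one group reached the other, as at 97.7% of all tested genes. Ifitm3, a membrane protein that hinders virus entry, was far more abundant at 1187 and 1188 FPKM in LPS model cells, against 532 and 581 FPKM in control cells, but its rise (1.09 ± 0.049) changed sign under both rescalings. Ifi27l2a (-0.36 ± 0.10) and Ifi213 (-0.35 ± 0.081) fell by small amounts. Both lost their call when 1 library was left out, Ifi27l2a without LPS model 1 or LPS model 2 (adjusted p = 0.138 at most) and Ifi213 without LPS model 2 or control 1 (adjusted p = 0.054 at most).

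Antigen presentation was less uniform. Of 11 tested genes of MHC class I and peptide transport, 8 rose and 3 did not pass the test, and the median of 0.84 turned to -0.29 and -0.069 under the rescalings. The non-classical class I genes led, with 94.8 and 99.6 FPKM in LPS model cells, against 14.4 and 15.2 FPKM in control cells at H2-T24, and with differences of 2.63 ± 0.049 for H2-T24, 1.94 ± 0.047 for H2-T23 and 1.42 ± 0.062 for H2-T22. Class I genes are near-identical copies of each other, so their reads may be shared. B2m, the common light chain, had 1433 and 1431 FPKM in LPS model cells, against 733 and 774 FPKM in control cells, a rise of 0.93 ± 0.037 that changed sign with the median of ratios. Of 13 class II genes only H2-DMb2 was listed and it was not called. Costimulation genes rose at 6 of 7, with Cd274 (PD-L1, an inhibitory ligand) at 12.5 and 12.96 FPKM in LPS model cells, against 1.38 and 1.404 FPKM in control cells, Cd80 at 12.2 and 13.6 FPKM in LPS model cells, against 2.09 and 2.78 FPKM in control cells and Cd83 at 24.1 and 25.5 FPKM in LPS model cells, against 5.42 and 6.11 FPKM in control cells. Cd276 (B7-H3) fell instead, with 3.95 and 4.01 FPKM in LPS model cells, against 10.3 and 10.5 FPKM in control cells.

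Sterol and fatty acid synthesis was the function that fell most evenly: 0 of its 20 tested genes rose, 19 fell and 1 was not called, against 23.4% lower over all tested genes. Its median of -0.66 was -1.81 and -1.62 under the rescalings. Most of these genes make cholesterol from acetyl units or lengthen and desaturate fatty acids, and many of them are driven by the factor SREBP, which is switched on when membrane sterol is low. Hmgcs1, which makes HMG-CoA at the entry of the pathway, had 23.8 and 25.1 FPKM in LPS model cells, against 58.2 and 59.01 FPKM in control cells. Mvd, the mevalonate diphosphate decarboxylase, had 15.4 and 15.8 FPKM in LPS model cells, against 33.5 and 35.1 FPKM in control cells. Mylip (IDOL, a ubiquitin ligase that is not a synthesis enzyme and is known as a target of LXR, a sensor of high sterol) had 1.90 and 1.64 FPKM in LPS model cells, against 4.85 and 6.08 FPKM in control cells. The falls of these genes, -1.23 ± 0.046, -1.09 ± 0.048 and -1.22 ± 0.12, were the largest of the list. Later enzymes followed with smaller falls, Idi1 -0.75 ± 0.089, Fdft1 -0.67 ± 0.048, Sqle (squalene epoxidase) -0.79 ± 0.045, Lss -0.44 ± 0.058, Cyp51 -0.67 ± 0.048, Msmo1 -0.34 ± 0.059 and Nsdhl -0.52 ± 0.054. Hsd17b7, with 14.2 and 14.96 FPKM in LPS model cells, against 15.1 and 16.6 FPKM in control cells, was the gene that did not pass (adjusted p = 0.14). Among the desaturases and elongases, Scd2 had 54.9 and 57.9 FPKM in LPS model cells, against 109.5 and 100.5 FPKM in control cells, Scd1 fell by a smaller amount (-0.52 ± 0.071) and Elovl6 had a difference of -0.62 ± 0.054. The regulators Srebf2 (-0.58 ± 0.056) and Insig1 (-0.62 ± 0.051), the sterol carrier Stard4 (-0.997 ± 0.059) and the acetyl-CoA acetyltransferase Acat2 (-0.65 ± 0.059) fell with the enzymes.

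**Figure D2:**
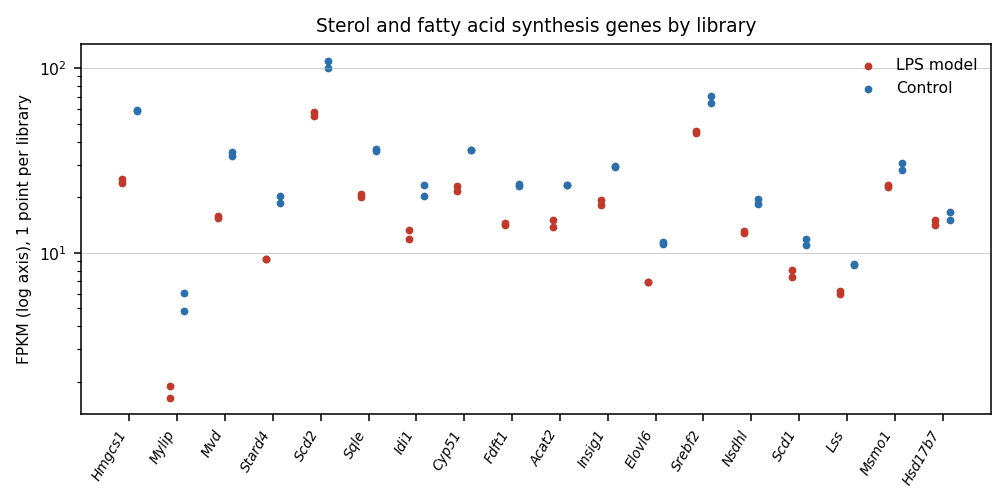
FPKM (log axis) of 18 of the 20 tested genes of sterol and fatty acid synthesis in each library, ordered by their difference, with 1 point per library for LPS model (red) and control (blue) cells. The red points lie below the blue points for every gene drawn, with the widest gap at Hmgcs1 and Mylip and the narrowest at Hsd17b7, which was not called.

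Of 7 tested genes of prostaglandin and leukotriene metabolism, 5 rose and 2 fell, near the background shares. Ptgs2 (cyclooxygenase 2, the inducible step of prostaglandin synthesis) had 158 and 161 FPKM in LPS model cells, against 16.1 and 16.2 FPKM in control cells, Ptges (prostaglandin E synthase) had 10.3 and 10.02 FPKM in LPS model cells, against 0.952 and 0.878 FPKM in control cells, and Pla2g5, a secreted phospholipase that frees fatty acids, had 25.7 and 26.1 FPKM in LPS model cells, against 6.61 and 6.14 FPKM in control cells. The enzymes that make prostaglandin E2 thus rose by 3.23 ± 0.036 and 2.54 ± 0.065. Hpgd, the dehydrogenase that inactivates prostaglandins, had 0 and 1 reads in LPS model cells, against 96 and 131 in control cells, a difference of -2.29 ± 0.13. Hpgd reached 1 FPKM only in the control libraries, so its direction followed from the filter. Alox5, the first enzyme of leukotriene synthesis, had 9.58 and 10.3 FPKM in LPS model cells, against 33.8 and 33.2 FPKM in control cells. Of 8 tested genes of fatty acid oxidation and PPAR, 6 rose and 2 fell, again near the background. The largest rises were of lipid droplet and fatty acid carriers, Hilpda (2.45 ± 0.048), Fabp4 (1.93 ± 0.075) and Fabp5 (1.49 ± 0.054), and the falls of Acaa1b (-0.81 ± 0.20) and Acot2 (-0.78 ± 0.08), which act in peroxisomal oxidation and on mitochondrial acyl-CoA. Acaa1b lost its call without LPS model 1 or LPS model 2 (adjusted p = 0.126 at most). Only 3 genes were tested in the list of lipid efflux and nuclear receptors, shortened to lipid efflux below. Pltp, the phospholipid transfer protein, fell (4.73 and 4.18 FPKM in LPS model cells, against 18.4 and 17.3 FPKM in control cells), Nr1d1, a heme-binding nuclear receptor of the circadian clock, rose (1.67 ± 0.12), and Abcg1 rose by 0.30 ± 0.059, which changed sign under both rescalings and lost its call without LPS model 1 (adjusted p = 0.055).

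Defence against oxidants rose at 17 of 19 tested genes, with a median of 1.41 that stayed above 0 under both rescalings (0.42 and 0.31). Many of these genes are targets of NRF2, the main factor of the oxidant response. Of the 19 genes, 3 reached 1 FPKM only in libraries given LPS, so the filter favoured their rise. An antioxidant response-like motif (TGAC, any 3 bases, then GC, on either strand) was in 3 of the 19 promoter windows of this list, against 12.4% of all windows. Slc7a11, the cystine importer that feeds glutathione synthesis, had 41.7 and 44.6 FPKM in LPS model cells, against 5.48 and 5.19 FPKM in control cells. Prdx1 (peroxiredoxin 1, which reduces hydrogen peroxide) had 1388 and 1407 FPKM in LPS model cells, against 269.8 and 285 FPKM in control cells, and Gsta2, a glutathione transferase, had 4.20 and 4.73 FPKM in LPS model cells, against 0.154 and 0.149 FPKM in control cells. The list as a whole held 1.17% and 1.18% of reads in LPS model cells, against 0.335% and 0.342% in control cells. Hmox1 (heme oxygenase 1) at 569 and 574 FPKM in LPS model cells, against 127 and 135 FPKM in control cells and Nqo1 at 4.23 and 3.66 FPKM in LPS model cells, against 0.505 and 0.226 FPKM in control cells, named after their values were seen, belong to the same group. Mgst3, a microsomal glutathione transferase, was the member that fell, with 17.5 and 15.8 FPKM in LPS model cells, against 52.7 and 55.4 FPKM in control cells, and Gstm1 was not called.

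Iron genes rose at 6 of 9 tested and fell at 1, with a median of 1.00 that turned to -0.22 with the median of ratios. Fth1 (ferritin heavy chain, which stores iron) was the most abundant gene of both groups, with 14230 and 14375 FPKM in LPS model cells, against 6931 and 7408 FPKM in control cells, or 4.94% and 4.99% of all reads in LPS model cells, against 2.40% and 2.57% in control cells. Its rise of 1.00 ± 0.041 was -0.22 with the median of ratios. Slc11a1 (NRAMP1, the metal exporter of the phagosome) had 189 and 191 FPKM in LPS model cells, against 27.2 and 26.5 FPKM in control cells, and Lcn2 (lipocalin 2, which binds bacterial siderophores) had 204 and 215 reads in LPS model cells, against 0 and 0 in control cells. The exporter ferroportin, Slc40a1, rose by 1.37 ± 0.067. Hfe, a regulator of iron uptake, fell, with 2.01 and 2.04 FPKM in LPS model cells, against 5.37 and 6.19 FPKM in control cells. The metallothionein Mt1 (adjusted p = 0.06) and the zinc transporter Slc30a4 did not pass the test.

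Polyamine, nucleotide and tryptophan metabolism rose at 8 of 9 tested genes (median 1.42). Odc1 (ornithine decarboxylase, the first step of polyamine synthesis) had 613 and 618 FPKM in LPS model cells, against 102 and 104 FPKM in control cells. Upp1 (uridine phosphorylase) had 20.5 and 20.4 FPKM in LPS model cells, against 0.0924 and 0.239 FPKM in control cells, and Cda (cytidine deaminase) had 7.39 and 7.23 FPKM in LPS model cells, against 1.05 and 0.508 FPKM in control cells. Another 5 processed pseudogenes annotated as ornithine decarboxylase were listed and rose. Gm7993, the most abundant, had 503 and 506 FPKM in LPS model cells, against 83.3 and 92.5 FPKM in control cells, and the others, Gm9115, Gm17709, Gm14928 and Gm9260, differed by 1.96 ± 0.058, 1.84 ± 0.10, 1.80 ± 0.14 and 1.31 ± 0.12. How reads that match several copies were counted is not given in the sources used here, so these may not be independent rises. In all, 29 of 30 tested processed pseudogenes rose. Others of them are annotated as copies of Fabp5 (Gm6166, 1.61 ± 0.065, which did not pass after quantile normalization) and Prdx1 (Gm21399, 2.47 ± 0.17), genes that also rose, and the one that fell, Gm38317 (-1.66 ± 0.15), is annotated as a copy of Itgb5, which fell.

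Carbon metabolism was thinly listed. Of 7 tested genes of glycolysis and hypoxia, 6 rose and 1 was not called, with a median of 0.91 that turned to -0.14 with the median of ratios. Hk3, a hexokinase, had 116 and 118 FPKM in LPS model cells, against 36.6 and 36.3 FPKM in control cells. The glucose transporter Slc2a1 had 88.4 and 89.01 FPKM in LPS model cells, against 36.5 and 37.6 FPKM in control cells and did not pass the test after either rescaling, and Ak4 rose (0.96 ± 0.054) but changed sign with the median of ratios. Only Acod1 and Pck2 were listed of 41 genes of the TCA cycle and respiration. Pck2 rose by 0.20 ± 0.062, which changed sign under both rescalings and lost its call without LPS model 1, LPS model 2 or control 1 (adjusted p = 0.164 at most). Of 12 tested genes of amino acid supply and the ATF4 stress response, 11 rose, led by Trib3 (1.72 ± 0.088), Atf5 (1.52 ± 0.06) and Chac1 (1.38 ± 0.086), although the median of 0.85 turned to -0.12 with the median of ratios. Sesn1 (sestrin 1, a stress-induced inhibitor of mTORC1) fell, with 3.31 and 3.45 FPKM in LPS model cells, against 11.8 and 12.6 FPKM in control cells.

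Survival and death genes rose at 11 of 12 tested, while 7 were higher and 3 lower with the median of ratios, and 8 and 1 with quantile normalization. Pim1, a survival kinase, had 14.8 and 14.8 FPKM in LPS model cells, against 2.68 and 2.70 FPKM in control cells. Mlkl, the effector of necroptosis, had 36.3 and 35.3 FPKM in LPS model cells, against 11.3 and 9.72 FPKM in control cells, and Bcl2l1 (BCL-XL, an inhibitor of apoptosis) had 33.4 and 33.7 FPKM in LPS model cells, against 11.7 and 11.5 FPKM in control cells. Both promoters and inhibitors of cell death were thus among the rises. Bmf, a pro-apoptotic BCL2 family member, fell (-0.61 ± 0.091). All 3 tested genes of DNA repair and p53 rose, Ercc1 by 1.77 ± 0.05, Pmaip1 by 1.27 ± 0.051 and Mdm2 by 1.04 ± 0.034, the last of which changed sign under both rescalings. Of 76 cell cycle genes only Plk2 was listed, with 31.6 and 34.5 FPKM in LPS model cells, against 5.36 and 6.01 FPKM in control cells, and of 33 genes of the unfolded protein and heat shock response 0 were listed, which says nothing of the level of genes outside the table.

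Receptors on the cell surface divided. Among Fc, lectin and paired immunoreceptors, 18 of 21 tested genes rose and 2 fell (median 1.10), while 9 were higher and 8 lower with the median of ratios, and 10 and 5 with quantile normalization. Siglec1 (CD169, a sialic acid-binding receptor) had 55.9 and 59.3 FPKM in LPS model cells, against 2.45 and 2.80 FPKM in control cells, Klra2, a Ly49 receptor, had 18.04 and 18.9 FPKM in LPS model cells, against 1.56 and 1.57 FPKM in control cells, and Clec4n (dectin-2, a receptor of fungal mannans) had 9.68 and 9.14 FPKM in LPS model cells, against 1.66 and 1.28 FPKM in control cells. Those that fell were Clec12a, an inhibitory lectin, with 7.45 and 6.77 FPKM in LPS model cells, against 18.4 and 18.6 FPKM in control cells, and Cd300c (-1.09 ± 0.091). In the list of scavenger and phagocytic receptors and their ligands, 1 of 6 tested genes rose and 4 fell, with a median of -1.03. Since 2 of the 6 genes reached 1 FPKM only in control libraries, the filter favoured their fall, and the count is a description. Of the 4 receptors in the list, Itgb5 and Olr1 fell, Cd36 rose and Axl was not called. Its summed level was higher, 229 and 238 FPKM in LPS model cells, against 154 and 151 FPKM in control cells, most of it from Cd36. Itgb5, an integrin chain that takes part in the uptake of dying cells, had 11.02 and 11.4 FPKM in LPS model cells, against 53.2 and 52.4 FPKM in control cells, a difference of -2.14 ± 0.045 (adjusted p = 2.1e-06). Gas6 and Pros1, the bridging ligands between dying cells and TAM receptors, had 0.568 and 0.558 FPKM in LPS model cells, against 2.63 and 2.07 FPKM in control cells at Gas6 and 5.76 and 5.72 FPKM in LPS model cells, against 13.7 and 12.6 FPKM in control cells at Pros1. Olr1 differed by -0.99 ± 0.11 and the TAM receptor Axl had an adjusted p of 0.36. Cd36, a receptor of oxidised lipoproteins, rose to 209.9 and 219 FPKM in LPS model cells, against 81.4 and 81.5 FPKM in control cells, a rise that changed sign with quantile normalization.

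Integrins and adhesion genes were split, 8 higher and 4 lower of 14 tested, and their median of 0.78 changed sign under both rescalings. Itgax (CD11c) and Itgam (CD11b), α chains of the β2 integrins, rose, as did the tetraspanin Cd82 (1.36 ± 0.045). Itgax had 7.67 and 7.52 FPKM in LPS model cells, against 1.28 and 1.02 FPKM in control cells. Itgam had 35.3 and 35.4 FPKM in LPS model cells, against 11.2 and 9.96 FPKM in control cells. Itga4, the α4 chain that binds VCAM-1 and fibronectin, had 23.98 and 24.2 FPKM in LPS model cells, against 103 and 96.8 FPKM in control cells, a difference of -2.01 ± 0.047 (adjusted p = 2.4e-06). Nectin3 fell with it (-1.29 ± 0.075). Of the G protein-coupled receptors outside the chemokine system, 8 of 12 rose and 4 fell. Of the 12 genes, 4 reached 1 FPKM only in libraries given LPS and 2 only in control libraries, so the filter favoured their direction. S1pr1, the sphingosine 1-phosphate receptor of cell egress, had 0.633 and 0.711 FPKM in LPS model cells, against 6.24 and 8.41 FPKM in control cells, the largest fall of all tested genes on the scale log2(FPKM + 1) (-2.30 ± 0.14). By the ratio of mean FPKM it was 10.9-fold lower and Hpgd fell further, and under both rescalings Itgb5 fell most among these 3 genes (-3.29 and -3.33). S1pr1 and Hpgd reached 1 FPKM only in control libraries, so their direction followed from the filter. Htr1b, a serotonin receptor, had 1.45 and 1.53 FPKM in LPS model cells, against 7.14 and 7.26 FPKM in control cells, and Gpr183, a receptor of oxysterols, had 15.8 and 14.3 FPKM in LPS model cells, against 43.8 and 43.5 FPKM in control cells. Hcar2 (GPR109A, the niacin and butyrate receptor) rose most, with 10.6 and 11.7 FPKM in LPS model cells, against 0.407 and 0.606 FPKM in control cells, and Fpr1, a receptor of bacterial formyl peptides, had 2.50 and 1.82 FPKM in LPS model cells, against 0 and 0.0443 FPKM in control cells. Complement and coagulation genes rose at 6 of 8 tested, but their median of 0.82 turned to -0.16 and -0.037 under the rescalings. Procr, the protein C receptor, had 79.5 and 83.6 FPKM in LPS model cells, against 8.26 and 7.34 FPKM in control cells, C3ar1 rose by 1.46 ± 0.041, and F7 rose by 0.93 ± 0.14 without passing after either rescaling.

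The remaining large falls were of genes with varied roles. Fgd2, an exchange factor of the GTPase CDC42, had 0.379 and 0.389 FPKM in LPS model cells, against 5.02 and 5.601 FPKM in control cells, and Olfml3, a secreted glycoprotein, had 0.460 and 0.251 FPKM in LPS model cells, against 4.33 and 5.01 FPKM in control cells. Igfbp4, which binds insulin-like growth factors, had 9.12 and 8.29 FPKM in LPS model cells, against 39.4 and 40.4 FPKM in control cells, and St6gal1, the enzyme that caps glycans with sialic acid, had 1.24 and 1.26 FPKM in LPS model cells, against 8.12 and 8.34 FPKM in control cells. These genes were 4.58-fold to 13.8-fold lower by mean FPKM, with Igfbp4 the least and Fgd2 the most. Fgd2 and Olfml3 reached 1 FPKM only in control libraries, so their direction followed from the filter. Cxcl14, a chemokine, also fell, with 17.9 and 16.3 FPKM in LPS model cells, against 70.6 and 78.4 FPKM in control cells, against the direction of the other chemokines named here. Ighm, the immunoglobulin heavy chain, had 2.27 and 2.72 FPKM in LPS model cells, against 11.5 and 11.7 FPKM in control cells. Serinc3, a membrane protein among the 10 highest genes of control cells, had 109 and 106 FPKM in LPS model cells, against 238 and 240.2 FPKM in control cells.

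**Figure D3:**
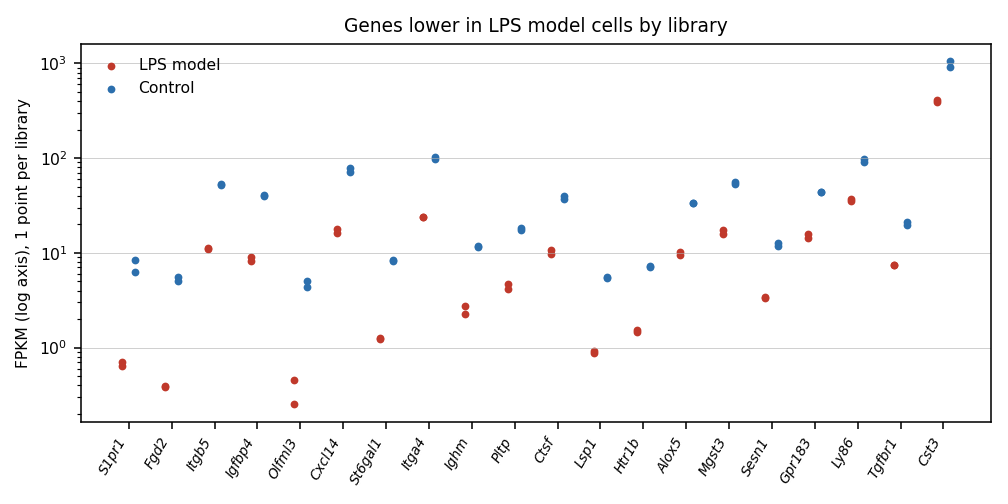
FPKM (log axis) in each library of 9 of the 10 genes with the largest falls and of 11 further genes named for the largest falls of their function, with 1 point per library for LPS model (red) and control (blue) cells. Hpgd, also among the 10, is left out because LPS model 1 had 0 reads. The red points lie below the blue points for every gene drawn, from Olfml3 under 1 FPKM to Cst3 above 100 FPKM.

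Genes of the osteoclast, the bone-resorbing cell of the macrophage lineage, rose at all 11 tested (median 1.67), while 8 were higher and 3 lower with the median of ratios, and 8 and 2 with quantile normalization. Of the 11 genes, 3 reached 1 FPKM only in libraries given LPS. Mmp9 (gelatinase B) had 20.2 and 19.7 FPKM in LPS model cells, against 0.0683 and 0.0331 FPKM in control cells, Src had 5.14 and 4.89 FPKM in LPS model cells, against 0.414 and 0.268 FPKM in control cells and Tm4sf19, a tetraspan protein of osteoclasts, had 150.4 and 150.4 FPKM in LPS model cells, against 35.2 and 33.3 FPKM in control cells. Acp5 (the acid phosphatase TRAP) at 1.67 ± 0.065 and Ctsk (cathepsin K) at 1.09 ± 0.075 rose less. Nfatc1, the main factor of osteoclast formation, rose by 0.18 ± 0.045, which changed sign under both rescalings and lost its call without LPS model 2 (adjusted p = 0.0621). Lysosomal genes were split, 5 higher and 4 lower of 9 tested, and their median of 0.95 changed sign under both rescalings. Ctsf (cathepsin F) had 9.83 and 10.7 FPKM in LPS model cells, against 36.7 and 39.4 FPKM in control cells, the sulfatase Ids fell by -1.15 ± 0.069 and Tfeb, the factor that controls lysosomal genes, had 0.936 and 1.42 FPKM in LPS model cells, against 3.15 and 3.72 FPKM in control cells, whereas Ctsl (cathepsin L) rose to 189 and 187 FPKM in LPS model cells, against 85.8 and 85.6 FPKM in control cells, and changed sign under both rescalings. Of 9 tested lineage transcription factors, 6 rose and 3 fell, and their median of 0.41 changed sign under both rescalings. Pou2f2 (OCT2) had 16.3 and 17.2 FPKM in LPS model cells, against 2.01 and 2.18 FPKM in control cells. Cebpd and Ets2 rose by 1.04 ± 0.15 and 1.15 ± 0.05, and both changed sign with the median of ratios. Mef2c and Mef2a, factors of the resting macrophage and of muscle, had 5.90 and 5.78 FPKM in LPS model cells, against 14.3 and 13.8 FPKM in control cells at Mef2c and 9.29 and 10.3 FPKM in LPS model cells, against 22.4 and 21.5 FPKM in control cells at Mef2a.

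All 10 tested genes of matrix and its proteases rose, with a median of 2.17. Since 6 of them reached 1 FPKM only in libraries given LPS, their direction followed from the filter, and the count is a description. Mmp12 (macrophage elastase) had 10.8 and 12.1 FPKM in LPS model cells, against 0.0418 and 0.0970 FPKM in control cells. Plau (urokinase, which activates plasminogen) had 810.5 and 825 FPKM in LPS model cells, against 239.9 and 238 FPKM in control cells, and its receptor Plaur, named after its values were seen, had 161 and 171 FPKM in LPS model cells, against 25.5 and 26.03 FPKM in control cells. Plau was among the 10 highest genes of both groups, and its rise (1.77 ± 0.03) did not pass after quantile normalization. Another 19 genes of this list were below the level tested. In each, both LPS model libraries were above both control libraries, as in 366 of all 436 untested genes (83.9%). Of the 29 listed genes, 11 were read almost only in the LPS model libraries, by the rule set out below. Among actin, myosin and GTPase genes, 12 of 16 rose and 4 fell, near the background shares, while 7 were higher and 7 lower with the median of ratios, and 7 and 6 with quantile normalization. Cdc42ep2, an effector of CDC42, had 5.94 and 6.97 FPKM in LPS model cells, against 0.405 and 0.353 FPKM in control cells, and Marcksl1, an actin regulator, had 248 and 247 FPKM in LPS model cells, against 47.7 and 47.7 FPKM in control cells. Lsp1, an actin-binding protein of leukocytes, had 0.885 and 0.920 FPKM in LPS model cells, against 5.41 and 5.50 FPKM in control cells, and Rin2 (-1.10 ± 0.053) and Tln2 (-0.63 ± 0.079) fell. All 6 tested genes of cAMP signalling and SRC-family kinases rose, while 2 were higher and 3 lower with the median of ratios, and 2 and 2 with quantile normalization. The median of 1.05 turned to -0.11 with the median of ratios. Of the 6 genes, 2 reached 1 FPKM only in libraries given LPS, so the filter favoured their rise. Pde4b, which degrades cAMP, rose by 1.21 ± 0.10. Lyn, a SRC-family kinase, rose by 1.14 ± 0.05 and changed sign under both rescalings.

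Solute carriers rose at 18 of 23 tested and fell at 4 (median 1.07), near the background shares, while 8 were higher and 8 lower with the median of ratios, and 12 and 7 with quantile normalization. Slc15a3, a lysosomal peptide transporter, had 37.2 and 38.8 FPKM in LPS model cells, against 2.84 and 3.16 FPKM in control cells, and Slc6a4, the serotonin transporter, had 8.41 and 8.49 FPKM in LPS model cells, against 0.280 and 0.297 FPKM in control cells. Slc5a3, the inositol importer, had 8.51 and 8.53 FPKM in LPS model cells, against 22.4 and 22.3 FPKM in control cells. Slc25a23 (-0.99 ± 0.066) and Slc7a4 (-0.81 ± 0.12) also fell. The chloride exchanger Clcn7 (0.87 ± 0.046) and the sodium pump subunit Atp1b3 (1.02 ± 0.033) rose and changed sign with the median of ratios, Atp1b3 also with quantile normalization.

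Set side by side, 34 of 39 function lists had at least 3 tested genes. Of these 34 lists, 32 had a median above 0 and 2 below it, sterol and fatty acid synthesis and the scavenger and phagocytic receptors. For the latter, 2 of 6 tested genes reached 1 FPKM only in control libraries. Most lists held genes that reached 1 FPKM only in libraries given LPS, for which the filter favoured a rise. After the median of ratios 21 medians were above 0 and 13 below, and after quantile normalization 25 were above and 8 below. In 23 lists the median was above that of all tested genes. The lists hold 428 of the 1053 tested genes. Of 49 annotated terms of molecular function and 62 of cellular component with at least 10 tested genes, a few are given. Cytokine activity had all 17 tested genes higher (median 2.08, or 1.55 with the median of ratios). G-protein coupled receptor activity had 7 higher and 7 lower (medians -0.11 and -0.73). Among cellular components, phagocytic vesicle membrane had 12 of 13 higher and 0 lower, but its median of 0.97 turned to -0.043 with the median of ratios. Receptor complex had 5 higher and 6 lower, bicellular tight junction had 3 higher and 7 lower, and endoplasmic reticulum membrane had 29 higher and 16 lower of 46. With the median of ratios, the medians of these last terms were -1.24, -1.34 and -0.13.

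**Figure D4:**
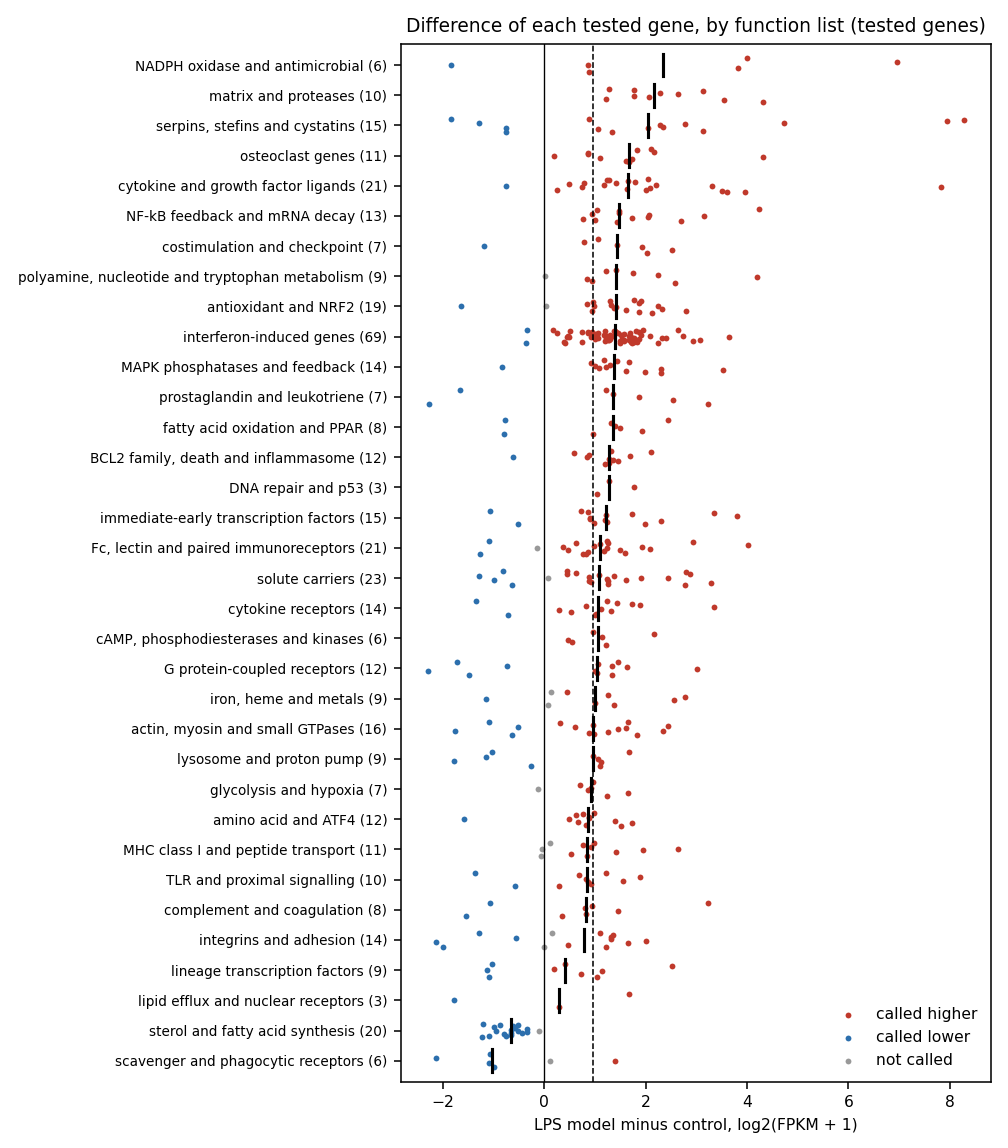
Each point is a tested gene, placed by its difference between LPS model and control cells on the scale log2(FPKM + 1), in the 34 function lists with at least 3 tested genes (number in parentheses), ordered by median. Red points were called higher, blue points lower and grey points not called, black bars are list medians, and the dashed line is the median of all tested genes (0.96). The bars of sterol and fatty acid synthesis and of scavenger and phagocytic receptors stand left of 0.

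The macrophage label was checked against its markers. Of 16 macrophage markers 4 were listed, of which Itgam, Cd14 and Fcgr3 rose and Fcgr1 was not called. As for Cd14, the rise of Fcgr3 (0.75 ± 0.06) changed sign under both rescalings. The other 12 markers are outside the table, which says nothing of their level. Of 12 neutrophil markers only S100a8 and Csf3r were listed, and of 13 T cell and 8 mast cell and basophil markers 0. Reads of markers of other tissues were found in the LPS model libraries, and the source of these reads was not tested. The epithelial keratin genes Krt8, with 361 and 196 reads in LPS model cells, against 0 and 0 in control cells, Krt18, with 102 and 71 reads in LPS model cells, against 0 and 0 in control cells, and Krt19, with 129 and 97 reads in LPS model cells, against 0 and 0 in control cells, were at 0 reads in the control libraries and in the library given LPS and the compound. Of 21 epithelial markers 4 were listed, the other being Elf3 with 10 and 4 reads in LPS model cells, against 0 and 0 in control cells. The stromal genes Sparc (193 and 117 reads in LPS model cells, against 0 and 1 in control cells), Col3a1 (68 and 57 reads in LPS model cells, against 0 and 0 in control cells) and Cav1 (75 and 58 reads in LPS model cells, against 0 and 0 in control cells) were at 0 or 1 reads in the control libraries and at 0 in the library given the compound, and 8 of 20 stromal markers were listed. Acta2 differed from them, with 148 and 175 reads in LPS model cells, against 21 and 18 in control cells and with 164 reads in the library given LPS and the compound.

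By a rule set after seeing the data, 77 listed genes had no fewer than 10 reads in either LPS model library and no more than 3 in any of the 3 others. Together they had 3529 and 2424 reads in the LPS model libraries, against 23 and 32 in the control libraries, and 57 of them had 0 reads in the library given the compound. LPS model 1 was above LPS model 2 at 55 of these 77 genes, with a median ratio of 1.30, and at 318 of the 755 other genes called higher, with a median ratio of 0.989. Without these genes, 755 tested genes were called higher and 246 lower, and 4 of the 34 lists lost 1 or 2 tested genes. The median of matrix and proteases was then 2.28 with 9 of 9 genes higher, that of serpins, stefins and cystatins 1.69 with 10 of 14 higher and 4 lower, that of interferon-induced genes 1.36 with 65 of 67 higher and 2 lower, and that of actin, myosin and GTPase genes 0.96 with 11 of 15 higher and 4 lower.

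**Figure D5:**
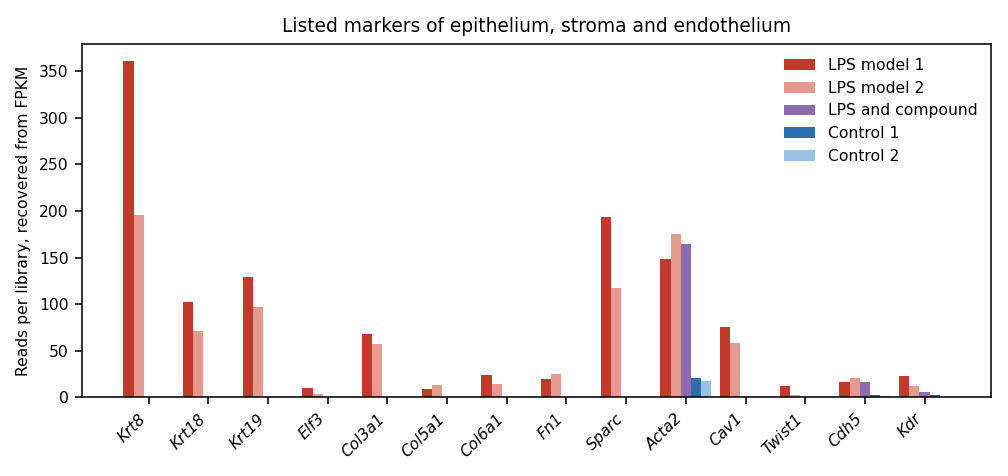
Reads in each library, recovered from FPKM, of the 14 listed markers of epithelium, stroma and endothelium. Bars from left to right are LPS model 1 and 2, LPS and compound, and control 1 and 2. Krt8 reaches 361 and 196 reads in the LPS model libraries and 0 in the 3 other libraries, and Acta2 is the one of these genes with over 100 reads in the library given the compound.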

How the data were processed

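RNA libraries of RAW264.7 cells were made with a stranded kit and sequenced on an Illumina HiSeq. Per the labels and the methods of the study, the authors trimmed reads with Trimmomatic 0.32, aligned them to mm10 with HISAT2 2.1.0, used SAMtools 1.4, and tested genes with DESeq2. The deposited table gives log2 FPKM values of 1489 selected genes in 5 libraries, with exact 0 for a gene without reads (562 values). How genes were selected and counted, and whether counting used strand, is not given in the sources used here, so overlapping genes cannot be told apart. Terms of biological process (191) are not used here. Values were turned back to FPKM, and depth and reads were recovered from FPKM and exon lengths, since 97.3% to 99.4% of low values were whole within 0.1 read at the depth found. Of the gene IDs, 1487 were in the annotation, 1333 with the same coordinates.

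Genes with FPKM of at least 1 in 2 libraries, or in the library given the compound, were tested (1053). Log2(FPKM + 1) values of the 3 groups (LPS model, control, LPS and compound) were fitted together with limma 3.58.1 in R 4.3.3, with a mean-variance trend, and the contrast of LPS model minus control was adjusted by Benjamini-Hochberg over all tested genes at 0.05. The fit had 2 residual and 2.97 prior degrees of freedom. The code was tested on simulated data. No exact permutation test was run, since 2 libraries against 2 cannot reach the threshold. Alternatives were another pseudocount (0.1), no filter, a filter at FPKM 10, a fold threshold, a stricter p, rescaling by quantiles or by the median of ratios, the replicate number as a block, leaving out each library, and limma-voom on the recovered reads. A fold against a group at 0 reads was computed against 3 reads over the group. Such a bound takes the 3 reads as fixed and covers no spread between libraries. Standard errors come from the limma fit and reflect the spread between libraries of a group, moderated over all tested genes.

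Genes were named by rule: the 10 largest changes in each direction, up to 3 per direction in each function list, the 10 highest of each group, and listed markers. A few genes that this rule names are not reported here, though they stay in all counts and medians. Single genes outside it were picked with their values known. The function lists, markers and comparisons were chosen with earlier results of these data known. Promoter windows came from RefSeq (GRCm38.p6), with symbols matched also by synonym. Calculations used Python 3.11.15 with numpy 2.4.6, pandas 2.3.3 and matplotlib 3.10.9.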

Additional observations from a re-analysis of the deposited data

How the results depend on the processing

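The numbers of genes called higher and lower were 766 and 246. They moved with the scale, to 408 and 408 with the median of ratios and to 443 and 348 with quantile normalization. They were 393 and 91 with a filter at FPKM 10 and 497 and 125 with a further threshold of 1 on the log2 fold change, which by construction leave fewer genes to call. They were 1092 and 305 with no filter and 1125 and 306 with limma-voom on the recovered reads, 762 and 246 with a pseudocount of 0.1, 742 and 240 with an unadjusted p under 0.01, and 749 to 759 and 238 to 246 with 1 library left out. With a replicate block they were 764 and 247, and libraries of the same number did not deviate together (correlation -0.0219 over 1053 genes), so the numbers were not taken as pairs. The block ended the call of Pck2 (adjusted p = 0.0507). Without LPS model 1, Abcg1 (adjusted p = 0.055), Acaa1b (0.0774), Ifi27l2a (0.0884) and Pck2 (0.164) lost their call. Without the genes read almost only in the LPS model libraries, a setting chosen after seeing the data, 755 and 246 genes were called. Medians that changed sign with the median of ratios were those of the TLR list (-0.16), MHC class I (-0.29), glycolysis (-0.14), lipid efflux (-0.76), iron (-0.22), amino acids and ATF4 (-0.12), complement (-0.16), lysosome (-0.16), integrins (-0.13), cAMP and kinases (-0.11) and lineage factors (-0.47). With quantile normalization they were those of MHC class I (-0.069), lipid efflux (-0.54), complement (-0.037), lysosome (-0.48), integrins (-0.20) and lineage factors (-0.25), and with the filter at FPKM 10 that of lipid efflux (-1.79). Named genes that changed sign with the median of ratios were Abcg1 (-0.76), Ak4 (-0.14), Atp1b3 (-0.19), B2m (-0.29), Cd14 (-0.29), Cebpd (-0.048), Clcn7 (-0.28), Cstb (-0.32), Ctsl (-0.081), Ets2 (-0.038), Fth1 (-0.22), Ifitm3 (-0.12), Lyn (-0.048), Mdm2 (-0.16) and Pck2 (-0.88), and so did Fcgr3 (-0.39) and Nfatc1 (-0.99), which the rule on size did not name. With quantile normalization they were Abcg1 (-0.54), Atp1b3 (-0.48), Cd14 (-0.17), Cd36 (-0.10), Cstb (-0.95), Ctsl (-0.48), Ifitm3 (-0.46), Lyn (-0.063), Mdm2 (-0.34), Pck2 (-0.62), Fcgr3 (-0.084) and Nfatc1 (-0.82). The median of ratios assumes that most listed genes do not change, and it sets the median difference near 0 (-7.8e-05 over all tested genes). Quantile normalization assumes that all libraries have the same distribution of levels. Neither assumption was tested, and 96.1% of tested genes were called before rescaling. With 2 libraries a group, small differences in genes of few reads are the least certain.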
